A study of Homo sapiens with 9 samples.

Results

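Matrix metalloproteinases (MMPs), their tissue inhibitors (TIMPs) and the plasminogen activators with their receptor were followed through knockdown and re-expression of the RNA helicase DDX3X in Daoy cells, an established human medulloblastoma line. The 10 genes MMP1, MMP2, MMP3, MMP14, TIMP1, TIMP2, TIMP3, PLAU, PLAUR and PLAT were taken by symbol from 57820 Ensembl identifiers, and all 10 were among the 16155 genes tested. RNA was sequenced from 9 libraries in 4 groups. The mutant group held 3 libraries, 1 each of cells re-expressing DDX3X with the change G302V, R534H or P568L, and the wild type group 1 library re-expressing unchanged DDX3X, all on a background of a hairpin against the 3′ untranslated region (UTR). The shDDX3X group held 3 polyclonal knockdown libraries, with the UTR hairpin in shDDX3X 1 and 3 and a hairpin against the open reading frame in shDDX3X 2. The control group held a parental library (control 1) and a vector library (control 2). Induction of hairpins and constructs lasted 72 h in doxycycline at 1 µg/ml, and whether either control was given the drug is not stated. Each mutant stands for 1 cell population, so the mutant group pools different proteins.

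MMPs are zinc proteases that cleave collagens and other matrix proteins, and most are secreted as inactive precursors. MMP14 is anchored in the plasma membrane, where it activates the MMP2 precursor with TIMP2 as a bridge. TIMPs bind the active site of MMPs. PLAU (urokinase), held at the cell surface by its receptor PLAUR, and PLAT (tissue plasminogen activator) convert plasminogen into plasmin, a protease that degrades fibrin and matrix and activates several MMP precursors. Together these genes are studied in tumour invasion, and several are known targets of the AP-1 and ETS transcription factors.

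Promoter sequence was looked up because AP-1 is a shared regulator of these families. RefSeq promoters (GRCh38.p14, 250 bases before to 50 after a start) were matched for 5 of the 10 genes, MMP14, TIMP1, TIMP3, PLAU and PLAUR, in 6 entries. Searched on both strands, the AP-1 consensus TGANTCA was in the PLAUR window and the variant TGAGTAA in the TIMP1 window; neither was in the entries of MMP14, TIMP3 or PLAU, which says only that these letters are not in those windows. Of 35116 promoters in the table, 7.71% held the consensus and 2.57% the variant. The 2 sites, each with its motif in capitals, are shown for the receptor and the inhibitor whose levels are described below.
PLAUR, chr19:43670339-43670365, minus strand, motif starting 186 bases before the start: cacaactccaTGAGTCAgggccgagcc
TIMP1, chrX:47582325-47582351, plus strand, motif starting 101 bases before the start: ggtgggtggaTGAGTAAtgcatccagg

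Each library had 8216568 to 13030572 reads on genes, so 3 counts, the limit that a count of 0 allows, equalled 0.230 to 0.365 CPM (reads scaled to library size). The numbers in the deposited names form 2 series. Between 5.24% and 5.73% of reads were unaligned in series A (shDDX3X 1, shDDX3X 2 and control 1), and between 19.6% and 24.0% in series B, which holds the 6 remaining libraries and with them every re-expression line. Fits included the series, and ratios are also given within a series. The level of a gene relative to the other libraries also followed its GC content, from a Spearman correlation of -0.71 in control 1 to 0.58 in shDDX3X 3 across genes. DDX3X itself was at 249, 139 and 182 normalised CPM in shDDX3X 1 to 3, against 683 and 453 CPM in the controls, and it fell (edgeR log2 fold change -1.60 ± 0.24 SE, adjusted p = 0.0357; called under 9 of 17 alternatives). In the re-expression libraries its counts stayed at 198, 211 and 242 CPM (G302V, R534H, P568L) and 195 CPM (wild type), and these counts do not tell construct from endogenous RNA. Groups are named here by their labels. The cells carried mesenchymal transcripts at very different levels. Means of the 10 listed ran from 3.77 CPM for DCN to 11685 CPM for FN1, with LUM at 20.2, PDGFRB at 39.9 and VIM at 1471 CPM. The granule lineage factors ATOH1, NEUROD1 and BARHL1 averaged at most 0.12 CPM, while PTCH1 (53.5 CPM) and ZIC1 (18.3 CPM) were present. The 8 haematopoietic markers summed to 3.49 to 7.46 CPM and the 4 endothelial ones matched to 5.28 to 17.7 CPM. The 5 epithelial ones summed to 111 to 265 CPM, most of it KRT18 (mean 166 CPM).

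The 10 genes covered a wide range of levels. Per kilobase of the longest transcript, MMP14 had the highest median over the 9 libraries (264 CPM/kb), followed by MMP2 (185), TIMP1 (153), TIMP2 (106), PLAUR (79.2), PLAU (63.6), PLAT (12.46), TIMP3 (12.40), MMP1 (0.714) and MMP3 (0.405). The ranges of neighbours in this order overlapped, except that TIMP3 in its lowest library (5.99 CPM/kb) was above MMP1 in its highest (2.09 CPM/kb). Among the 10 genes the membrane protease MMP14 and the gelatinase MMP2 thus had the highest levels, and there was little RNA of the interstitial collagenase MMP1 or the stromelysin MMP3, which had 1 to 39 and 1 to 38 counts per library. The highest library exceeded the lowest 2.12-fold for TIMP2, 2.20-fold for MMP14, 2.85-fold for TIMP1, 2.91-fold for MMP2 and 3.20-fold for PLAU. The spread was wider for TIMP3 (6.08-fold), PLAUR (6.41-fold) and PLAT (8.63-fold).

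**Figure D1:**
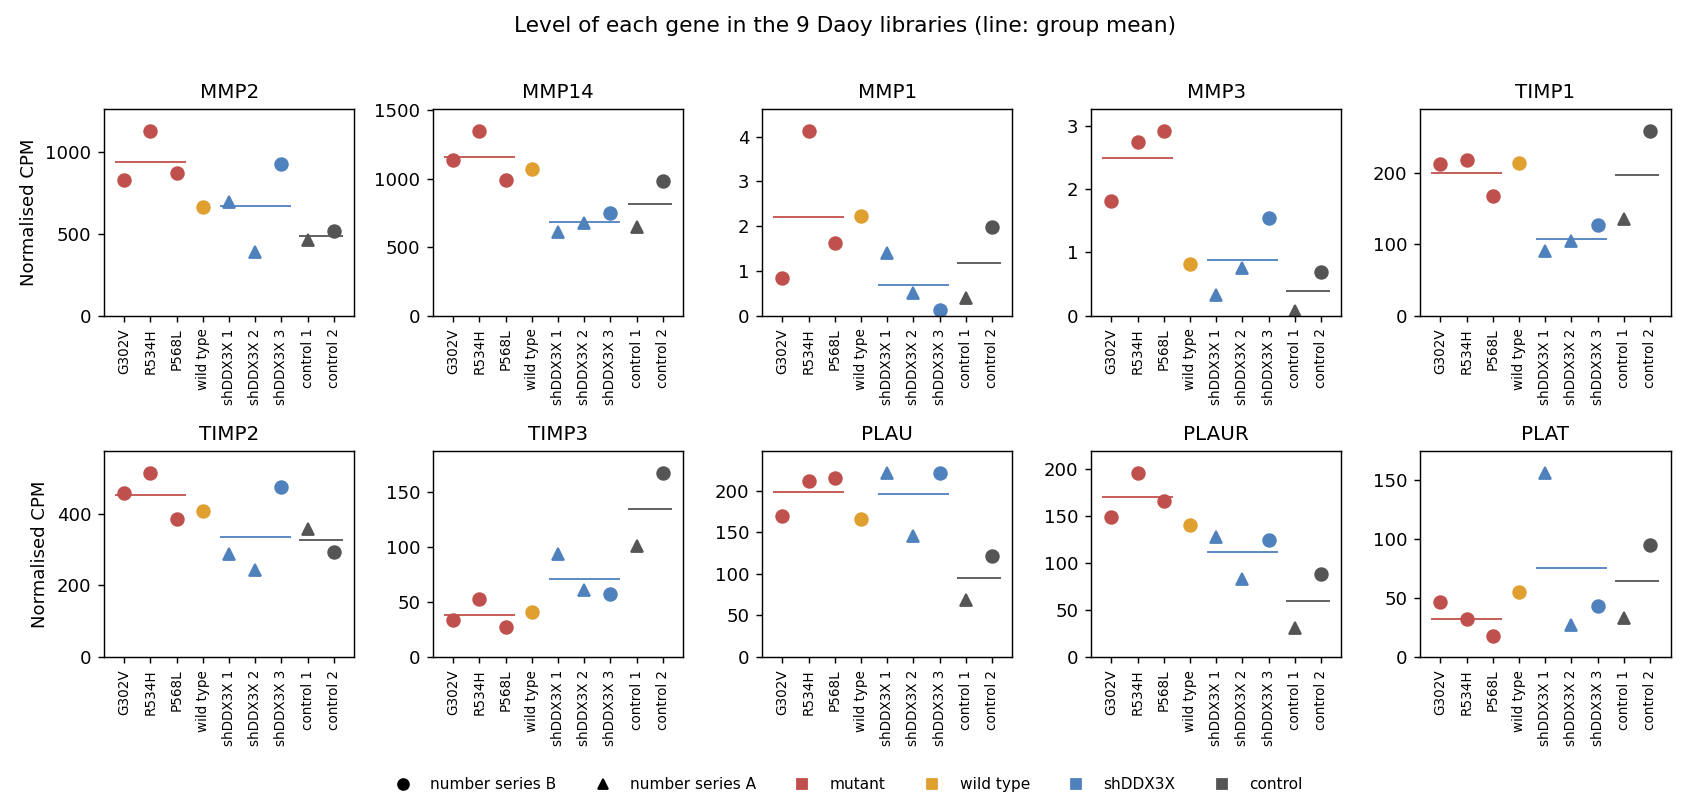
Normalised CPM (vertical axis, from 0) of each of the 10 genes in the 9 libraries, coloured by group, with lines at the means of groups with more than 1 library; circles are series B and triangles series A. PLAU lies above both controls in all 3 shDDX3X libraries, TIMP1 and TIMP3 below both, and the 3 mutants and the wild type have the lowest TIMP3 levels.

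The comparison of knockdown with control asked which of these genes depend on DDX3X. In levels, PLAU was higher and TIMP1 and TIMP3 were lower in all 3 shDDX3X libraries than in both controls, but by edgeR's quasi-likelihood test adjusted over all genes 0 of the 10 passed 0.05, where 0.675% of tested genes did (109 of 16155). At an unadjusted p under 0.05 there were 5 (MMP3, PLAU and PLAUR higher, TIMP1 and TIMP3 lower), against 22.0% of tested genes. DESeq2 called 3 of the 10, TIMP1, PLAU and PLAUR, against 8.13% of tested genes (1313 of 16155, of which 14589 had an adjusted p). Groups did not overlap for 3 genes, against 20.9% of tested genes. The median log2 fold change was 0.16 over the 10 genes and -0.01 over all genes tested. No label states that replicates came from separate cultures, and the groups pool different controls, hairpins or mutant proteins. Each p thus measures only the spread between these libraries, in which such differences and technical ones cannot be told apart.

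Urokinase and its receptor had the smallest p-values of the 10 genes in the knockdown comparison. PLAU (ENSG00000122861.11) was at 222, 145 and 221 CPM in shDDX3X 1, 2 and 3, against 69.1 and 121 CPM in controls 1 and 2. The groups did not overlap, and the log2 fold change was 1.17 ± 0.23 (SE, edgeR adjusted p = 0.0533; DESeq2 adjusted p = 0.000169). Within series the ratio to the control was 3.20 in shDDX3X 1 and 2.10 in shDDX3X 2 (series A), and 1.82 in shDDX3X 3 (series B). PLAU thus stood above its control under both hairpins and in both series. Without control 1, which left shDDX3X 3 as the contrast with vector, its log2 fold change was 0.86 (adjusted p = 0.481), and without control 2 it was 1.41 (adjusted p = 0.00623); it was 1.27 without shDDX3X 2 (adjusted p = 0.0323) and 1.41 without shDDX3X 3 (adjusted p = 0.00651), but 0.97 without shDDX3X 1 (adjusted p = 0.103). After removal of each library's GC trend it was 1.04 (adjusted p = 0.0512).

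PLAUR (ENSG00000011422.7), which concentrates urokinase on the cell surface, was at 127, 83.4 and 124 CPM in the shDDX3X libraries, against 30.6 CPM in control 1 and 88.7 CPM in control 2. Here shDDX3X 2 lay just below control 2, so the groups overlapped. In edgeR the log2 fold change was 1.20 ± 0.32 (SE, adjusted p = 0.0865; DESeq2 adjusted p = 0.00163). Its within-series ratios were 4.17, 2.73 and 1.40 in shDDX3X 1, 2 and 3. The difference between the series B and series A effects was -1.30 ± 0.42 on the log2 scale (SE, edgeR adjusted p = 0.145). The fold change differed with the library left out, and control, series and knockdown library cannot be told apart there. It was 0.48 without control 1 (adjusted p = 0.697) and 1.79 without control 2 (adjusted p = 0.0019) or without shDDX3X 3 (adjusted p = 0.00204).

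PLAT (ENSG00000104368.13), the activator best known for the dissolution of fibrin clots, had no common direction. It was at 156, 27.1 and 43.1 CPM in shDDX3X 1, 2 and 3, against 32.9 and 95.1 CPM in controls 1 and 2. The library shDDX3X 1 stood alone above all others, at 4.74 times control 1, while shDDX3X 2 was at 0.83 times control 1 and shDDX3X 3 at 0.45 times control 2. The log2 fold change was 0.30 ± 0.83 (SE, edgeR adjusted p = 0.875). It was -0.71 without shDDX3X 1, -1.14 without control 1, and 1.48 without control 2 or shDDX3X 3. Within series A the open reading frame hairpin gave 0.17 times the PLAT level of the UTR hairpin, with 1 library each.

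TIMP1 (ENSG00000102265.7), a secreted inhibitor of most MMPs, was at 90.7, 105 and 127 CPM in the shDDX3X libraries, against 135 and 258 CPM in the controls. All 3 knockdowns were below both controls, shDDX3X 3 by a small margin below control 1. For TIMP1 the log2 fold change was -0.71 ± 0.19 (SE, edgeR adjusted p = 0.0899; DESeq2 adjusted p = 0.028), and the within-series ratios were 0.67, 0.78 and 0.49 in the 3 knockdowns. After GC correction the log2 fold change was -1.01 (edgeR adjusted p = 0.0132), and without control 2 or without shDDX3X 3 it was -0.46 (adjusted p = 0.2 each). TIMP1 and TIMP3 lie inside introns of the synapsin genes SYN1 and SYN3 on the opposite strand, and the library kit does not mark strand, so reads of the overlapping genes cannot be told apart.

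TIMP3 (ENSG00000100234.11), the inhibitor that stays bound to the matrix, was at 93.7, 60.9 and 57.1 CPM in the shDDX3X libraries, against 101 and 168 CPM in the controls. The groups did not overlap, but shDDX3X 1 was at 0.93 times its parental control, shDDX3X 2 at 0.60 times and shDDX3X 3 at 0.34 times the vector library. Over all libraries the log2 fold change was -0.90 ± 0.34 (SE, edgeR adjusted p = 0.172). It was -1.55 without control 1 (adjusted p = 0.406) and -0.38 without control 2 (adjusted p = 0.561). TIMP2 (ENSG00000035862.8), the partner of MMP14 in MMP2 activation, stood on opposite sides of control in the 2 series. It was at 287, 243 and 475 CPM in shDDX3X 1, 2 and 3, against 359 and 295 CPM in controls 1 and 2, which gave ratios of 0.80 and 0.68 in series A and 1.61 in series B. The pooled log2 fold change was 0.03 ± 0.24 (SE, edgeR adjusted p = 0.966).

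Among the proteases, MMP2 (ENSG00000087245.8, gelatinase A) was at 693, 388 and 928 CPM in the shDDX3X libraries, against 462 and 515 CPM in the controls. The library shDDX3X 2, with the open reading frame hairpin, was below both controls, and the other 2 knockdowns were above both. MMP2 had a log2 fold change of 0.49 ± 0.26 (SE, edgeR adjusted p = 0.304). MMP14 (ENSG00000157227.8) was at 612, 677 and 750 CPM in the shDDX3X libraries, against 648 and 984 CPM in the controls. Against the control of their series, shDDX3X 1 and 2 were at 0.94 and 1.05 times and shDDX3X 3 at 0.76 times (counting interval 0.74 to 0.79). Its log2 fold change of -0.17 ± 0.18 (SE, edgeR adjusted p = 0.607) became -0.55 after GC correction (adjusted p = 0.0688).

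MMP1 and MMP3 rest on few reads. MMP1 (ENSG00000196611.4) had 17, 6 and 1 counts in shDDX3X 1, 2 and 3, against 5 and 20 counts in controls 1 and 2. The ratio was 3.61 in shDDX3X 1 (95% counting interval 1.28 to 12.5) and 0.06 in shDDX3X 3 (0.0014 to 0.375), so the 2 UTR hairpin libraries were on opposite sides of their controls, and the pooled log2 fold change was -0.56 ± 1.10 (SE, edgeR adjusted p = 0.813). MMP3 (ENSG00000149968.7) had 4, 9 and 13 counts in the shDDX3X libraries, against 1 and 7 in the controls. Its log2 fold change was 1.62 ± 0.66 (SE, edgeR adjusted p = 0.189), and the within-series ratios of 4.25, 9.67 and 2.23 had counting intervals of 0.42 to 209, 1.34 to 424 and 0.83 to 6.59. These intervals cover counting error only, since reads without molecular identifiers are not independent molecules.

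**Figure D2:**
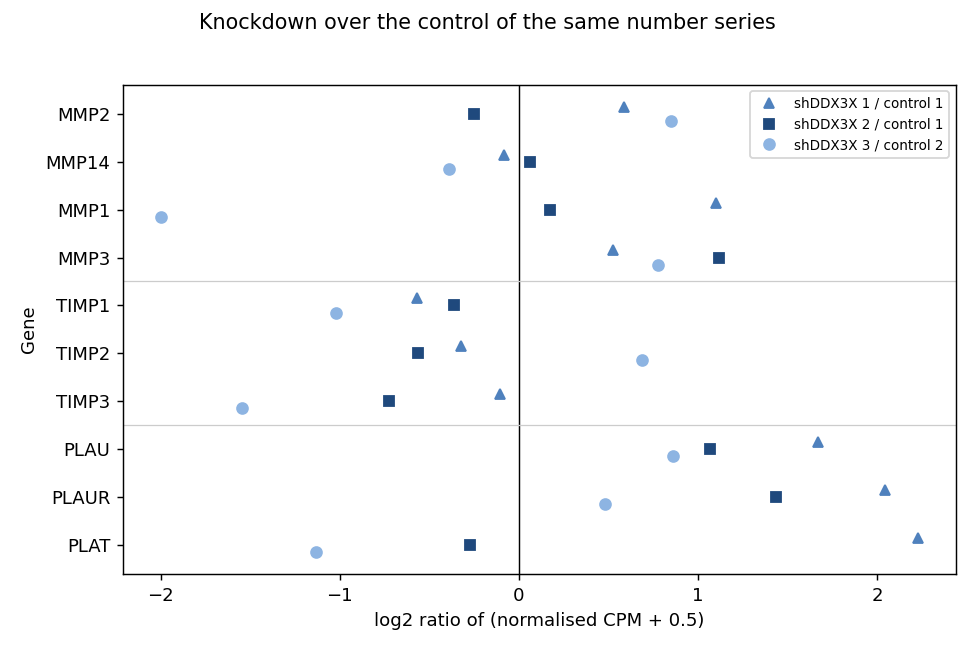
Log2 ratio of normalised CPM (plus 0.5) in each shDDX3X library over the control of its own series, for the 10 genes; each point is 1 library pair and the vertical line marks no difference. PLAU, PLAUR and MMP3 lie right of the line and TIMP1 and TIMP3 left of it in all 3 pairs, while MMP1, MMP2, MMP14, TIMP2 and PLAT fall on both sides.

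Inhibitor and protease levels were also read against each other, per kilobase and within a library, which cancels library size. TIMP1 over MMP14 was 0.51, 0.53 and 0.58 in shDDX3X 1, 2 and 3, against 0.71 and 0.89 in the controls. TIMP3 over MMP14 was 0.124, 0.073 and 0.062 in the shDDX3X libraries, against 0.126 and 0.138 in the controls. Both ratios were thus lower in every knockdown than in both controls, with shDDX3X 1 close to control 1 for TIMP3. TIMP2 over MMP2 did overlap, at 0.42, 0.64 and 0.52 in shDDX3X 1, 2 and 3, against 0.80 and 0.59 in the controls.

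Re-expression asked whether wild type or mutant DDX3X returned the cells towards control. Against shDDX3X, edgeR called 0 of the 10 genes with the mutants (0% of tested genes; DESeq2 called 0 of the 10, against 0.142%) and 0 with wild type (0%; DESeq2 0, against 0.0186%). At an unadjusted p under 0.05 the mutants had MMP14 higher and TIMP3 lower (2 of 10, against 5.53% of tested genes), and wild type had 0 of 10 (2.92%). The groups did not overlap for 5 of 10 genes between mutants and shDDX3X, against 14.6% of tested genes, but 2 of the 3 shDDX3X libraries were from series A and all mutants from series B, so mutant and series cannot be told apart in that count. Median log2 fold changes of the 10 genes were 0.21 for mutants and -0.26 for wild type, against 0.01 and -0.02 over all genes tested. The wild type comparisons rest on 1 library that is assumed to vary as the others do.

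MMP14 was at 1138, 1346 and 990 CPM with G302V, R534H and P568L and at 1070 CPM with wild type, against 612 to 750 CPM in shDDX3X. All 4 re-expression libraries were above every knockdown and above both controls (648 and 984 CPM). P568L was level with the vector library, at 1.01 times (counting interval 0.98 to 1.03). The log2 fold change against shDDX3X was 0.51 ± 0.20 for mutants (SE, edgeR adjusted p = 0.831) and 0.40 ± 0.25 for wild type (adjusted p = 1). Over shDDX3X 3, the knockdown of the same series, the ratio was 1.52, 1.79 and 1.32 for G302V, R534H and P568L and 1.43 for wild type.

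TIMP1 was at 213, 217 and 168 CPM with G302V, R534H and P568L and at 213 CPM with wild type, against 90.7 to 127 CPM in shDDX3X. Each re-expression library was above each knockdown and between the 2 controls (135 and 258 CPM). TIMP1 over MMP14 per kilobase was 0.64, 0.55 and 0.58 in the mutants and 0.68 in wild type, below both controls (0.71 and 0.89). Over shDDX3X 3 the ratios of TIMP1 itself were 1.67, 1.71 and 1.32 for the mutants and 1.68 for wild type. Over the vector library they were 0.82, 0.84 and 0.65 for the mutants and 0.83 for wild type. The log2 fold changes against shDDX3X were 0.48 ± 0.22 for mutants (SE, edgeR adjusted p = 0.831) and 0.58 ± 0.27 for wild type (adjusted p = 1).

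TIMP3 was lower in the re-expression libraries than in the knockdowns. It was at 34.1, 52.4 and 27.6 CPM with G302V, R534H and P568L and at 40.7 CPM with wild type, against 57.1 to 93.7 CPM in shDDX3X. These 4 libraries had the lowest TIMP3 of all, at 0.20, 0.31 and 0.16 times the vector level with the mutants and 0.24 times with wild type. The log2 fold change of mutants over shDDX3X was -0.96 ± 0.38 (SE, edgeR adjusted p = 0.831), and wild type gave -0.86 ± 0.50 (adjusted p = 1). Within series B the difference was smaller, at 0.60, 0.92 and 0.48 times shDDX3X 3 for the mutants and 0.71 times for wild type. The counting interval for R534H (0.81 to 1.04) includes equality with shDDX3X 3. TIMP3 over MMP14 per kilobase was 0.024, 0.032 and 0.023 in the mutants and 0.031 in wild type, against 0.062 in shDDX3X 3 and 0.138 in the vector library.

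PLAU and PLAUR were above the vector library in all 4 re-expression lines. PLAU was at 169, 212 and 215 CPM with G302V, R534H and P568L and at 166 CPM with wild type, against 221 CPM in shDDX3X 3 and 121 CPM in the vector library. PLAU was thus at 0.76, 0.96 and 0.97 times shDDX3X 3 in the mutants and 0.75 times in wild type, and the counting intervals for R534H (0.90 to 1.02) and P568L (0.92 to 1.03) include equality with shDDX3X 3. PLAUR was at 149, 196 and 165 CPM with the mutants and 141 CPM with wild type, against 124 CPM in shDDX3X 3 and 88.7 CPM in the vector library. The receptor was thus above shDDX3X 3 in all 4. In the fit over both series, however, PLAUR over shDDX3X was at log2 0.06 ± 0.34 for mutants (SE, edgeR adjusted p = 0.982) and -0.22 for wild type. For PLAU the fit gave -0.31 ± 0.25 for mutants (SE, edgeR adjusted p = 0.854) and -0.57 for wild type. PLAUR over PLAU per kilobase was 1.45, 1.53 and 1.27 in the mutants and 1.40 in wild type, against 0.93 to 0.95 in the 3 shDDX3X libraries, and 0.73 and 1.21 in the controls.

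MMP2, TIMP2 and PLAT lay on both sides of the knockdown of their series. MMP2 was at 0.89, 1.22 and 0.94 times shDDX3X 3 with G302V, R534H and P568L and 0.72 times with wild type, and TIMP2 at 0.97, 1.08 and 0.81 times with the mutants and 0.86 times with wild type. PLAT was at 1.08, 0.74 and 0.42 times shDDX3X 3 with the mutants and 1.28 times with wild type. P568L had the least PLAT RNA of all 9 libraries, 18.0 CPM. MMP1 had 7, 39 and 21 counts with the mutants and 19 with wild type, against 1 count in shDDX3X 3 and 20 in the vector library. All 4 were thus above shDDX3X 3, at 7.16 times with G302V (counting interval 0.92 to 323), 34.9 times with R534H (5.90 to 1412), 13.6 times with P568L (2.19 to 564) and 18.7 times with wild type (2.98 to 779), ratios that rest on that 1 count.

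**Figure D3:**
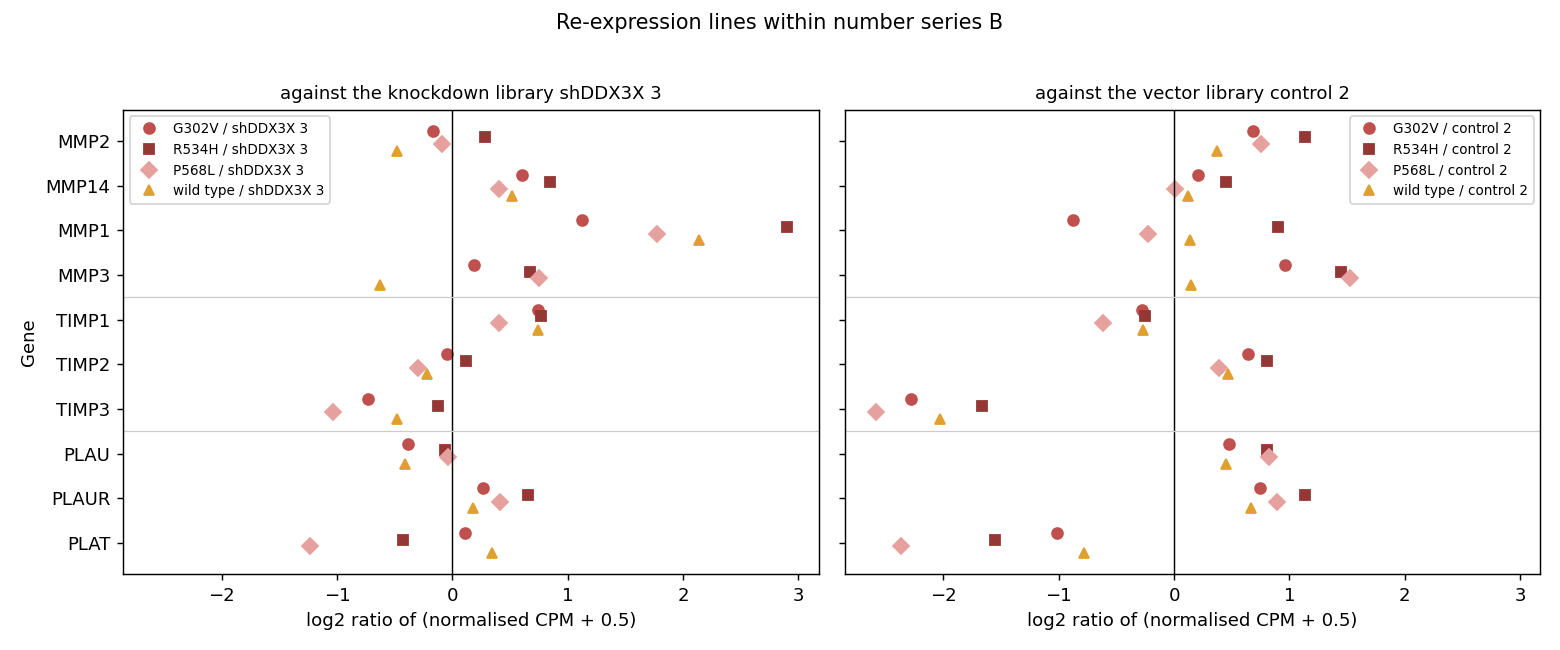
Log2 ratio of normalised CPM (plus 0.5) in the 4 re-expression libraries over shDDX3X 3 (left panel) and over the vector library control 2 (right panel), all in series B; each point is 1 library. TIMP1 and MMP14 lie above the knockdown in all 4, and TIMP3 lies below both the knockdown and the vector library.

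The mutants were compared with wild type to ask whether the changed proteins act differently. By edgeR 0 of the 10 genes were called (0% of tested genes; DESeq2 0 of the 10, against 0%), and 1, MMP3, had an unadjusted p under 0.05, against 1.95% of tested genes. MMP3 had 15, 26 and 38 counts (1.81, 2.75 and 2.92 CPM) with G302V, R534H and P568L, against 7 counts (0.82 CPM) with wild type. The log2 fold change was 1.61 ± 0.70 (SE, edgeR adjusted p = 1). Among the better expressed genes MMP2 was at 828, 1128 and 870 CPM in the mutants, against 666 CPM in wild type (log2 0.50 ± 0.33 SE, adjusted p = 1). With 1 wild type library the fits leave wide intervals, and a p of this size does not show that the proteins act alike. Among the mutants, R534H had the highest level of 7 of the 10 genes, while the lowest was in G302V for 5 and in P568L for 5. The share of all tested genes with such an order was not counted. The correlation with GC content also differed, at 0.53, 0.44 and -0.11 in G302V, R534H and P568L, and its part in the order was not tested.

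Mutant and control libraries were set side by side as well. By edgeR 0 of the 10 genes were called, against 0.0186% of tested genes (3 of 16155), and DESeq2 called 2 of the 10, TIMP3 and PLAUR, against 0.972% of tested genes (157 of 16155, of which 15215 had an adjusted p). At an unadjusted p under 0.05 there were 5 (MMP2, MMP3, PLAU and PLAUR higher, TIMP3 lower), against 11.9% of tested genes. Groups did not overlap for 7, against 36.2% of tested genes, but control 1 was from series A and all mutants from series B. TIMP3 averaged 38.0 ± 12.9 CPM in the mutants (SD, n = 3) and 134 ± 47.1 CPM in the controls (SD, n = 2). The edgeR log2 fold change was -1.85 ± 0.35 (SE), with an adjusted p of 0.132. It was -2.14 without control 1 (adjusted p = 0.0395) or shDDX3X 3 (adjusted p = 0.0378), and -0.97 without control 2 (adjusted p = 0.43). PLAUR averaged 170 ± 23.9 CPM in the mutants and 59.7 ± 41.1 CPM in the controls. Here the edgeR log2 fold change was 1.26 ± 0.32 (SE), with an adjusted p of 0.219. It was 2.24 without control 2 (adjusted p = 0.00654) and 0.94 without control 1 (adjusted p = 0.175). The log2 fold change of PLAU was 0.86 ± 0.25 (SE, adjusted p = 0.258), that of MMP3 2.12 ± 0.63 (adjusted p = 0.266) and that of MMP2 0.68 ± 0.30 (adjusted p = 0.413). These comparisons share controls with the knockdown comparison, so the values are not independent of it. The 5 epithelial markers summed to 111 to 127 CPM in the mutants, against 201 to 208 CPM in the controls. Most of that sum was KRT18 (mean 166 CPM), since KRT14 averaged 2.63 CPM and CDH1, EPCAM and KRT5 at most 0.57 CPM. In shDDX3X 1, 2 and 3 the sum was 265, 232 and 132 CPM, and in wild type 133 CPM. The low sums were thus all in series B, where the vector control was at 201 CPM. The part of these markers in the differences was not tested.

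Other genes of the pathway were read from 4 lists. In knockdown against control, edgeR called 1 of the 43 tested list genes, A2M, against 0.675% of tested genes. A2M (alpha-2-macroglobulin), a secreted trap for proteases of all classes, fell. It was at 0.17, 0.17 and 0.83 CPM in shDDX3X 1, 2 and 3 (2, 2 and 7 counts), against 1.79 and 3.85 CPM in the controls (23 and 39 counts). Its log2 fold change was -2.75 ± 0.50 (SE, edgeR adjusted p = 0.0482). It was at 4.35, 6.02 and 8.60 CPM with G302V, R534H and P568L and at 4.78 CPM with wild type, so all 4 re-expression libraries were above every knockdown, with log2 fold changes over shDDX3X of 3.29 ± 0.54 (SE, adjusted p = 0.505) and 2.88 ± 0.63 (adjusted p = 1). The knockdown call held under 6 of 16 alternatives. The adjusted p was 0.051 with DESeq2 size factors, 0.227 with no series term, 0.308 with only the groups compared and 0.452 with the replicate block. It was 0.422 without control 1, 0.117 without shDDX3X 1, 0.0506 without shDDX3X 2 and 0.0961 to 0.133 when 1 mutant library was left out. Across the 16 alternatives A2M ran from -3.93 to -2.20 on the log2 scale. Of the other regulators, the proprotein convertase FURIN, which activates MMP14, was at 312, 217 and 407 CPM in the shDDX3X libraries, against 71.6 and 253 CPM in the controls (log2 fold change 1.35, edgeR adjusted p = 0.0598). It was 0.76 with the GC trend removed, 0.69 without control 1 and 1.88 without control 2 (adjusted p = 0.0633, 0.539 and 0.000776). For BSG, an inducer of MMPs, the log2 fold change was 0.81 (adjusted p = 0.096), but 0.22 with the GC trend removed, 0.24 without control 1 and 1.26 without control 2 (adjusted p = 0.383, 0.796 and 0.0019). For THBS1 the value was 0.66 (adjusted p = 0.389; 0.050 without control 1) and for CD44 0.09 (adjusted p = 0.842).

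In the plasminogen system 0 of 9 tested genes were called in either direction (median log2 fold change -0.23, all genes -0.01). The plasminogen-binding proteins ENO1, ANXA2 and S100A10 had log2 fold changes of 0.02, -0.11 and -0.49 (edgeR adjusted p = 0.961, 0.752 and 0.139). S100A10 was at -0.22 without control 1 and -0.69 without control 2 (adjusted p = 0.835 and 0.0428). Plasminogen itself, PLG, averaged 0.10 CPM and was not tested.

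Of 19 other MMP genes 17 were matched and 9 tested, and 0 were called (median 0.69). MMP15, a membrane MMP, was at 13.4, 6.70 and 39.6 CPM in the shDDX3X libraries, against 3.43 and 14.3 CPM in the controls (log2 1.51, edgeR adjusted p = 0.0564). These ranges overlapped, although each knockdown was above the control of its own series. With the GC trend removed the log2 fold change of MMP15 was 0.60 (adjusted p = 0.429), and with the replicate block 0.42 (adjusted p = 0.997). It was 1.55 without control 2 or shDDX3X 3 and 1.69 without shDDX3X 2 (adjusted p = 0.0372, 0.0384 and 0.0177). MMP16, MMP17 and MMP19 had log2 fold changes of -0.18, 1.24 and -0.71 (adjusted p = 0.715, 0.372 and 0.213). For MMP17 it was 0.19 with the GC trend removed, -0.41 without control 1 and 3.41 without control 2 (adjusted p = 0.869, 0.862 and 0.00409). Of 15 AP-1, ETS and related transcription factors 0 were called (median 0.24), with FOSL1 at 1.32 (adjusted p = 0.115), FOSL2 at 0.48 (0.12), ETS1 at 0.56 (0.133) and SP1 at -0.39 (0.155). ETS1 was at 0.20 without control 1 and 0.84 without control 2 (adjusted p = 0.849 and 0.019). FOSL1, an AP-1 subunit, was at 155, 57.8 and 193 CPM in the shDDX3X libraries, against 30.01 and 120 CPM in controls 1 and 2. As for PLAUR, shDDX3X 2 was below control 2, and the log2 fold change of FOSL1 was 0.87 with the GC trend removed and 0.69 without control 1.

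**Figure D4:**
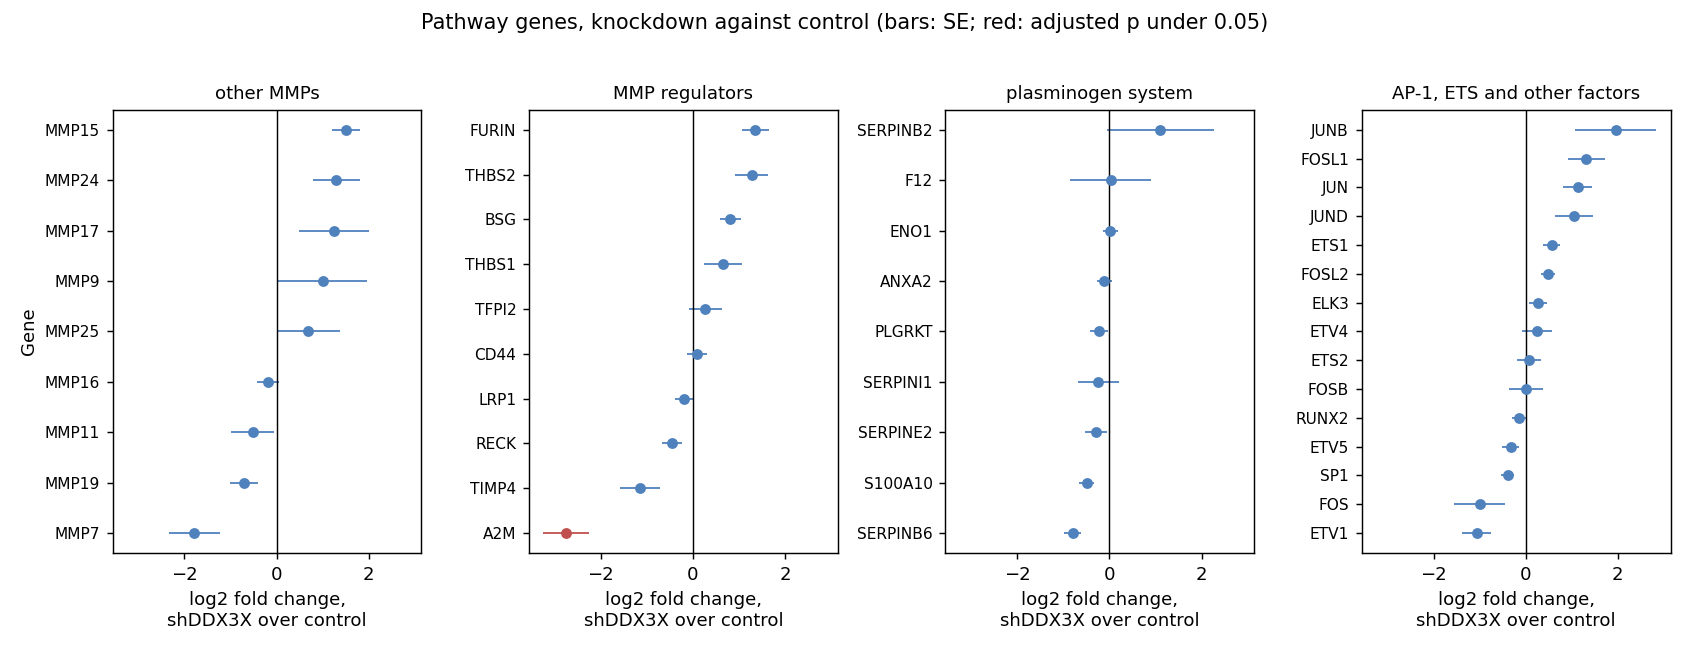
edgeR log2 fold change of shDDX3X over control for the 43 tested genes of the 4 lists, with bars for the SE; the vertical line marks no difference and red marks an adjusted p under 0.05. A2M, at -2.75, is the only gene in red.

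Genes most alike in pattern to 3 of the members were taken by Pearson's r of log2(CPM + 0.5) with the series means removed, over 9 libraries and among genes with a mean of at least 5 CPM. For PLAU these were NPLOC4 (0.993), PTPN1 (0.992), SLC7A1 (0.991), CHIC2 (0.986) and DIDO1 (0.985), the highest of 11490 genes. TIMP3 had lower values, with PACSIN2 at 0.944, CENPO at 0.943, SPAG5 at 0.931, SHROOM3 at 0.924 and SEC14L2 at 0.923. MMP1, with its few counts, was nearest to SOD3 (0.905), SGPP2 (0.904), NCOA7 (0.904), STC1 (0.883) and ANPEP (0.882). These are descriptions of 9 libraries that share depth and GC trends, and no test was made.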

How the data were processed

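Poly(A) RNA was made into TruSeq version 2 libraries, a kit that does not mark strand, and read as single ends, per the labels' protocols. The authors deposited whole-number read counts per Ensembl gene, 1 table per library. Per the submitters' processing notes the tools were bcl2fastq, HISAT2, HTSeq and DESeq2, without versions, and the build was GRCh37 (hg19). The 5 summary lines of each table (20.3% to 35.8% of reads) were left out. Symbols came from a table of gene names that gave 39538 identifiers (68.4%) a symbol, and transcript length and GC content came from GENCODE v29, whose build differs, so the only coordinates given are RefSeq's.

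The main test was edgeR 4.0.16 (R 4.3.3), robust quasi-likelihood with TMM scaling, on 16155 genes (1 CPM or more in 2 or more libraries). Group and number series were terms, all 9 libraries shared 1 estimate of the spread (4 residual degrees of freedom, median prior 5.85), and p-values were adjusted by Benjamini and Hochberg over all 16155 genes, with a call at 0.05. The script was tested on simulated data. DESeq2 1.42.0 was an alternative, beside other scaling, filters, terms, GC correction and leaving out each library. Each SE beside an edgeR log2 fold change was derived from the test, as the absolute fold change over the square root of the F statistic. Normalised CPM uses the same TMM factors. Ratios within a series are of these CPM, and log2 ratios add 0.5 CPM. Intervals of ratios at low counts are exact binomial intervals at 95%. No 2 libraries of a group agreed within sampling noise (chi-square over degrees of freedom of 10.6 to 93.5), so each was counted. Replicate numbers did not pair the samples: deviations from group means correlated at 0.35 for number 1 and -0.26 for number 2. The deviations of 2 controls mirror each other, so these 2 values are not independent. The correlation was 0.26 for control 1 with shDDX3X 2 and 0.45 for control 2 with shDDX3X 3. Deviations of the knockdowns cancel within each gene, so the sign of the 0.45 is fixed by the correlations of control 1 with shDDX3X 1 and shDDX3X 2. Control 1 thus went with the knockdowns of its own series, and the value for control 2 is not separate evidence.

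The 10 genes and the lists were chosen with earlier results of these data known. By rule all 10 are given, with every called gene of a list, up to 4 others of each list by mean CPM, and the 5 genes most alike to MMP1, PLAU and TIMP3. Values of PLG and the cell markers were added after the data were seen. A gene of the plasminogen list is not reported here and is left out of that list's counts.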

Additional observations from a re-analysis of the deposited data

Results flagged for a closer look

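For 2 of the 10 genes every shDDX3X library of series A lay on the other side of its control from that of series B, which drew them out for a closer look. The share of all tested genes that meet this rule was not counted, so whether 2 of 10 is unusual is not known. PLAT also turned between the series means (log2 0.98 in series A and -1.13 in series B), but its 2 knockdowns in series A disagreed with each other. For MMP1 the effect in series B minus that in series A was -5.20 ± 1.97 on the log2 scale (SE, edgeR interaction test, adjusted p = 0.261), and it rests on 1 count in shDDX3X 3. For TIMP2 the same difference was 1.13 ± 0.33 (SE, edgeR adjusted p = 0.107), with shDDX3X 1 and 2 below control 1 and shDDX3X 3 above control 2. The difference between series passed an adjusted p of 0.05 for 516 of 16155 genes and for 0 of the 10 (3, MMP1, TIMP2 and PLAUR, had an unadjusted p under 0.05, against 13.6% of tested genes). Series B is 1 knockdown over 1 vector control and series A 2 knockdowns over 1 parental control, so the kind of control and the series cannot be told apart.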

How the results depend on the processing

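The number of the 10 genes called was 0 in all 5 comparisons, and it moved in 3 of them. Between shDDX3X and control it was 3 with DESeq2 (TIMP1, PLAU and PLAUR), 4 with no filter on low counts (also TIMP3), 1 with the GC trend removed (TIMP1), and 0 to 2 on leaving out single libraries (PLAU and PLAUR without control 2 or shDDX3X 3, PLAU without shDDX3X 2). Between mutants and control it was 2 with DESeq2, 3 with no filter, 3 with only the groups compared and 0 to 1 without single libraries. Between mutants and shDDX3X it was 1 with no filter (TIMP3). Genes with groups that do not overlap numbered 4 to 5 between shDDX3X and control when a library was left out, against 3 with all. Leaving a library out of either group can only keep or raise this number, so the rise carries no weight. No share over all tested genes is given for the smaller sets. With the replicate block, which leaves shDDX3X 1 and 2 over controls 1 and 2, 0 of the 10 genes were called, and the numbers do not pair these samples.

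Over all tested genes, calls between shDDX3X and control numbered 109 in the main analysis, 1313 with DESeq2, 1920 with no filter, 17 at a mean of at least 5 CPM, 6 with no series term, 0 with only the groups compared, 291 with the GC trend removed, 0 with the replicate block, and 1 to 2097 without single libraries. Between mutants and control they numbered 3, against 157 with DESeq2, 658 with no filter, 419 with only the groups compared, 25 with the GC trend removed, and 0 to 781 without single libraries. Between mutants and shDDX3X they numbered 0, against 23 with DESeq2, 166 with no filter and 0 to 999 without single libraries, 999 being without shDDX3X 3.

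Directions turned for main fold changes near 0 and also for larger ones, and the cause was not tested. Larger ones included 1.42 for MMP1 (mutants over shDDX3X) and -1.02 for PLAT (mutants over control). For shDDX3X over control, MMP1 turned in series A alone (0.64) and PLAT in series B alone (-1.13). TIMP2 turned there with the GC trend removed (-0.097), the replicate block (-0.30) and series A alone (-0.44). ENO1 (-0.073) and MMP16 (0.036) turned with the GC trend removed. For mutants over shDDX3X, TIMP2 turned with only the groups compared (-0.069) and in series B alone (-0.079), and PLAU with no series term (0.020). For wild type over shDDX3X, TIMP2 turned with only the groups compared (-0.24) and in series B alone (-0.22), PLAT likewise (0.33 and 0.35), and PLAUR with those (0.17 and 0.18) and with no series term (0.34). MMP1 turned between mutants and wild type with no filter (0.0070), and TIMP1 between mutants and control with no series term (0.020).

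Leaving out single libraries gave these ranges where a direction turned. Over control, shDDX3X ran from -3.93 to 1.27 for MMP1, -0.44 to 0.69 for TIMP2, -1.14 to 1.48 for PLAT, -0.12 to 0.25 for CD44, -0.22 to 0.21 for ENO1, -0.22 to 0.045 for ANXA2 and -0.41 to 3.41 for MMP17. Over shDDX3X, mutants ran from -1.12 to 4.08 for MMP1, -0.78 to 0.71 for MMP3, -0.069 to 1.06 for TIMP2 and -0.85 to 0.46 for PLAUR. Over shDDX3X, wild type ran from -1.10 to 4.10 for MMP1, -0.48 to 0.14 for MMP2, -0.22 to 0.91 for TIMP2, -1.12 to 0.18 for PLAUR and -2.26 to 0.35 for PLAT. Over wild type, mutants ran from -0.80 to 0.35 for MMP1, -0.0027 to 0.21 for MMP14, -0.16 to 0.011 for TIMP1 and -0.40 to 0.090 for TIMP3. Over control, mutants ran from -0.37 to 0.18 for TIMP1, -0.51 to 0.62 for TIMP2 and -1.57 to 1.04 for PLAT.

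PLAU, PLAUR, MMP2 and MMP3 were above 0 and TIMP1, TIMP3 and MMP14 below 0 between shDDX3X and control under every alternative run for them. MMP1 and MMP3 have no value at a mean of at least 5 CPM, and at 1 to 39 counts their folds are limited by depth. With total assigned counts alone, 2 of 90 CPM values of the 10 genes moved by more than the spread in their group and 13 of 150 ratios within a series left their counting interval, against 0 of each with DESeq2 size factors.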
